A study of Mus musculus with 14 samples.

Results

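The factors that set the identity of microglia, the resident macrophages of neural tissue, were followed as 9 listed genes (Sall1, Mef2a, Mef2c, Irf8, Spi1, Runx1, Cebpa, Klf2 and Maf) out of the 35735 genes of the deposited TPM table. They were chosen by symbol, and all 9 were found. RNA came from 14 libraries, each from 1 mouse retina, of microglia sorted by 2 surface markers they carry, Fcrls and CD11b, and by the absence of Ly6c, with 100 to 600 cells collected per retina. The groups were APOE4 microbead (genotype APOE E4/E4, microbead injection, n = 3), APOE4 sham (APOE E4/E4, sham injection, n = 4), APOE3 microbead (APOE E3/E3, microbead injection, n = 3) and APOE3 sham (APOE E3/E3, sham injection, n = 4), all from mice aged 12 weeks. Microbeads obstruct the outflow of fluid from the eye and raise its pressure, which models glaucoma, and E3 and E4 are named after alleles of the human gene for apolipoprotein E. The labels name no promoter, cell type or age at which an allele was introduced and give no animal for a retina. P-values therefore describe the spread among these retinas, of which some may share a mouse.

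Microglial identity rests on layers of transcription factors. PU.1, encoded by Spi1, opens the enhancers of the whole myeloid lineage, and IRF8, RUNX1 and CEBPA act with it in macrophages and their precursors. SALL1 is, among the macrophages of the mouse, largely particular to microglia, and MEF2A and MEF2C bind near many genes that microglia express under the influence of their tissue. MAF serves gene programmes of resident macrophages, and KLF2 is best known as a factor of quiescence in endothelium and immune cells.

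Libraries held 453429 to 730134 estimated reads, of which 38.6% to 65.3% fell on 12 genes at satellite repeats. All 12 microglial markers were detected in each group. Their summed level was 15257 to 17699 CPM (TMM-normalised counts, scaled to a common library size) in APOE4 microbead, 15266 to 18104 CPM in APOE4 sham, 7467 to 12661 CPM in APOE3 microbead and 15256 to 20554 CPM in APOE3 sham. On the first principal component, which held 17.1% of the variance, APOE3 microbead retinas stood apart at -49.9, -33.9 and -19.1. APOE4 microbead libraries lay at 2.75, -7.96 and -3.07, and sham libraries of both genotypes between 8.16 and 19.1. The transcript set holds the mouse Apoe gene alone, so the alleles themselves could not be checked.

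All 9 factors passed the filter on low counts. Klf2 reached its cutoff in 0 of 3 APOE4 microbead and 2 of 4 APOE4 sham libraries, and in 1 of 3 APOE3 microbead and 2 of 4 APOE3 sham libraries, so it is left out of the counts over the set. The other 8 reached it in every library. After microbead injection none of them was called in APOE4 retinas, whereas Sall1, Mef2c and Maf fell in APOE3 retinas. Within the microbead retinas Sall1 was higher in APOE4 than in APOE3. Spi1, Runx1 and Cebpa, the factors shared by the wider myeloid lineage, were called in no comparison, and neither were Irf8, Mef2a and Klf2. Calls were made by the edgeR quasi-likelihood test over 7605 genes at an adjusted p under 0.05, where adjusted p stands for Benjamini-Hochberg adjustment over all of these genes.

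In APOE4 retinas 0 of these 8 factors were called for microbead against sham, where 0.197% of all genes were called, and 0 of 8 had an unadjusted p under 0.05, against 6.50% of all genes. In APOE3 retinas 3 of 8 were lower and 0 higher, where 1.62% of all genes were called lower and 3.54% higher. The median log2 fold change of the 8 factors was -0.11 in APOE4 and -0.42 in APOE3, against -0.00 and -0.02 over all genes. The difference between those responses was tested directly as an interaction, the effect in APOE4 minus the effect in APOE3. No factor was called there (0 of 8, against 0.0920% of all genes), and Mef2c and Sall1 had an unadjusted p under 0.05, as did 8.17% of all genes. A response called in APOE3 and not in APOE4 was therefore not shown to differ between genotypes for any of them. For APOE4 against APOE3, 1 of 8 factors was higher within microbead retinas, where 0.224% of all genes were called higher. Within sham retinas 0 of 8 were called, where 0.0131% of all genes were, and Mef2c alone had an unadjusted p under 0.05, which 4.40% of all genes had. DESeq2 and limma-voom called none of the 9 in APOE4, in the interaction or within sham either, though DESeq2 gave no adjusted p for Klf2 in APOE4 or for Klf2 and Cebpa in the interaction. In bulk samples such as these, fewer cells of a type and less RNA per cell cannot be told apart.

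**Figure D1:**
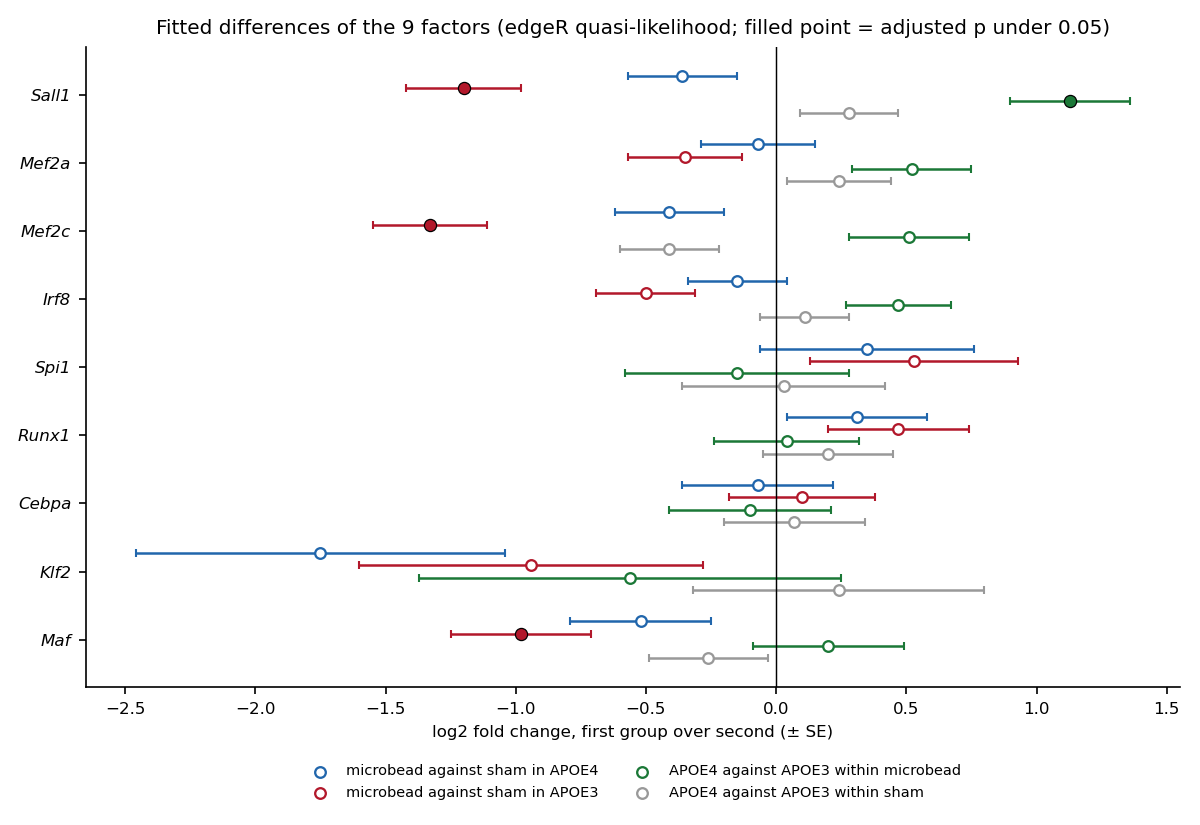
Log2 fold change (x axis, first group over second) of the 9 factors (y axis) in 4 comparisons, with whiskers of 1 standard error and filled points for an adjusted p under 0.05. The filled points are Sall1, Mef2c and Maf in APOE3, at -1.20, -1.33 and -0.98, and Sall1 for APOE4 against APOE3 within microbead, at 1.13.

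Sall1 encodes a zinc-finger protein that holds mouse microglia in their resting state. The gene lies on the minus strand of chromosome 8 (GRCm38, 89027235 to 89044162, ENSMUSG00000031665.7) and has a single transcript in the files, so none of its reads had to be divided. The window from 250 bases before to 50 bases after its furthest upstream start in RefSeq (GRCm38.p6, minus strand, chr8:89044113-89044412) is shown because Sall1 was the factor called in 2 comparisons. None of the motifs searched, listed further down, occurs in it, so it carries no capitals.
Sall1 promoter: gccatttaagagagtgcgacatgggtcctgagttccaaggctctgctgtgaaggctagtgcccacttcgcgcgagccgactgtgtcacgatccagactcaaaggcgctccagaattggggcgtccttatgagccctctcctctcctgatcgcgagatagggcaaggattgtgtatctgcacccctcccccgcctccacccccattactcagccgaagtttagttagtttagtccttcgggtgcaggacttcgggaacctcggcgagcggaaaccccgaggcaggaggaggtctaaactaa

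Sall1 stood at 268, 155 and 230 CPM in APOE4 microbead, against 244, 303, 279 and 285 CPM in APOE4 sham. It stood at 106, 99.1 and 92.7 CPM in APOE3 microbead, against 280, 225, 171 and 235 CPM in APOE3 sham. The APOE3 microbead retinas were thus the low ones in CPM: all 3 lay below every other retina of the series, while the APOE4 groups overlapped. The log2 fold change for microbead against sham was -0.36 ± 0.21 in APOE4 (SE, adjusted p = 0.861) and -1.20 ± 0.22 in APOE3 (adjusted p = 0.000994), where the gene was 2.3-fold lower. The interaction was 0.84 ± 0.30 (unadjusted p = 0.00933, adjusted p = 0.357).

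Within microbead retinas Sall1 averaged 217 ± 57.5 CPM in APOE4 and 99.4 ± 6.83 CPM in APOE3 (SD), a log2 fold change of 1.13 ± 0.23 (adjusted p = 0.0138). This call was lost in 9 of 28 alternative settings. Among them were leaving out APOE4 microbead 1 (adjusted p = 0.122), APOE4 microbead 3 (0.107) or APOE3 microbead 2 (0.0787). Within sham retinas it averaged 278 ± 24.7 CPM in APOE4 and 228 ± 44.9 CPM in APOE3, and that difference was not called (0.28 ± 0.19, adjusted p = 0.962).

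Mef2c and Mef2a encode related MADS-box factors, and MEF2C is known to restrain the inflammatory response of mouse microglia. Mef2c lies on the plus strand of chromosome 13 (83504034 to 83667080, ENSMUSG00000005583.16) and Mef2a on the minus strand of chromosome 7 (67231163 to 67372858, ENSMUSG00000030557.17). The windows shown are that of the third RefSeq start of Mef2c, where transcript Mef2c-212 begins (plus strand, chr13:83573357-83573656), and that of Mef2a (minus strand, chr7:67372809-67373108), from the same RefSeq set. Capitals mark TGCTGA, part of the MAF motif, in Mef2c. In Mef2a they mark GAGGAA, the core bound by PU.1 and other ETS factors, and CTAAAAATA, a MEF2 motif. GAGGAA also occurs in the windows of the first and second Mef2c starts, which are not shown. The third start region, with the starts beyond it, took 18.4% of Mef2c reads over all libraries, and the second start region 67.9%.
Mef2c promoter, start of Mef2c-212: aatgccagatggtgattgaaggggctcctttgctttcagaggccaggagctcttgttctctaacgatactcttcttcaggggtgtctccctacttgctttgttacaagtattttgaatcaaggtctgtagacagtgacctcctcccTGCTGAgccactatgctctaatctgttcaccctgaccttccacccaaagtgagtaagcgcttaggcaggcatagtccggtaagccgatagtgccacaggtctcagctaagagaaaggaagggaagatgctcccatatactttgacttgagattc
Mef2a promoter: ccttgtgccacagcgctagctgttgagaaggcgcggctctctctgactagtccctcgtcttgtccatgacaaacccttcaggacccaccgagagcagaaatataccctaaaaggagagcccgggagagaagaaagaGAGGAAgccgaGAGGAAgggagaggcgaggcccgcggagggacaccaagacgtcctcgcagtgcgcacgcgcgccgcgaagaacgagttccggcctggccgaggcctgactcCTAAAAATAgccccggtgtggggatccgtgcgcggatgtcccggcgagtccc

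Mef2c stood at 113, 99.7 and 114 CPM in APOE4 microbead, against 122, 129, 165 and 162 CPM in APOE4 sham. In APOE3 microbead it stood at 56.6, 82.4 and 87.4 CPM, against 211, 179, 165 and 212 CPM in APOE3 sham. Microbead retinas were below sham retinas without overlap in both genotypes, and the gap was wider in APOE3. The log2 fold change was -0.41 ± 0.21 in APOE4 (adjusted p = 0.806) and -1.33 ± 0.22 in APOE3 (adjusted p = 0.000251), where the gene was 2.5-fold lower. The difference of these effects was 0.92 ± 0.30 (unadjusted p = 0.00481, adjusted p = 0.289). Within microbead retinas the APOE4 libraries were all above the APOE3 libraries (0.51 ± 0.23, adjusted p = 0.451), and within sham retinas the fitted difference had the opposite sign (-0.41 ± 0.19, adjusted p = 0.962); neither was called.

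Mef2a averaged 242 ± 79.8 CPM in APOE4 microbead and 255 ± 18.3 CPM in APOE4 sham, and 169 ± 31.2 CPM in APOE3 microbead and 215 ± 40.4 CPM in APOE3 sham (SD). Groups overlapped in both genotypes, and no comparison called the gene. The log2 fold change was -0.07 ± 0.22 in APOE4 (adjusted p = 0.993) and -0.35 ± 0.22 in APOE3 (adjusted p = 0.528).

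Maf encodes c-MAF, a basic leucine zipper factor (minus strand of chromosome 8, 115682942 to 115707794, ENSMUSG00000055435.6). It stood at 40.2, 71.5 and 45 CPM in APOE4 microbead, against 57.4, 69.6, 94.3 and 81.1 CPM in APOE4 sham. Maf was at 49.8, 43.4 and 44.6 CPM in APOE3 microbead, against 97.9, 111, 67.1 and 85.2 CPM in APOE3 sham. The groups did not overlap in APOE3, and they did in APOE4, where microbead retina 2 lay among the sham retinas. The log2 fold change was -0.52 ± 0.27 in APOE4 (adjusted p = 0.795) and -0.98 ± 0.27 in APOE3 (adjusted p = 0.0251). The APOE3 call was the least stable of the 3 and was lost in 13 of 28 alternative settings. Leaving out a single library ended it for APOE3 microbead 1 (adjusted p = 0.0522), 2 (0.113) and 3 (0.0621) and for APOE3 sham 1 (0.0589) and 2 (0.0861).

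Irf8 encodes the partner with which PU.1 binds many myeloid enhancers (plus strand of chromosome 8, 120736358 to 120756694, ENSMUSG00000041515.10). It stood at 364, 337 and 252 CPM in APOE4 microbead, against 321, 397, 338 and 349 CPM in APOE4 sham. Levels of 206, 248 and 234 CPM were measured in APOE3 microbead, against 345, 283, 315 and 357 CPM in APOE3 sham. As for Sall1, the APOE3 microbead retinas were the 3 lowest of the series in CPM. The change of Irf8 was smaller and was not called: -0.15 ± 0.19 in APOE4 (adjusted p = 0.958) and -0.50 ± 0.19 in APOE3 (adjusted p = 0.151). Counted over the set in CPM, microbead and sham libraries did not overlap for 2 of 8 factors in APOE4 (Mef2c and Spi1), against 9.11% of all genes. In APOE3 this held for 4 of 8 (Sall1, Mef2c, Irf8 and Maf), against 13.1% of all genes. APOE4 and APOE3 libraries did not overlap for 3 of 8 within microbead (Sall1, Mef2c and Irf8), against 14.5% of all genes, and for 0 of 8 within sham, against 3.54%. On the deposited TPM, APOE3 microbead and sham overlapped for all 4 factors. Sall1 ran from 3.76 to 9.24 TPM against 8.36 to 22.8, and Irf8 from 13.4 to 55.6 against 22.1 to 76. The 3 separations within microbead were also absent on TPM. In APOE4 Mef2c stayed apart on TPM (10.8 to 14.7 against 15.3 to 40.6), and Spi1 did not.

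**Figure D2:**
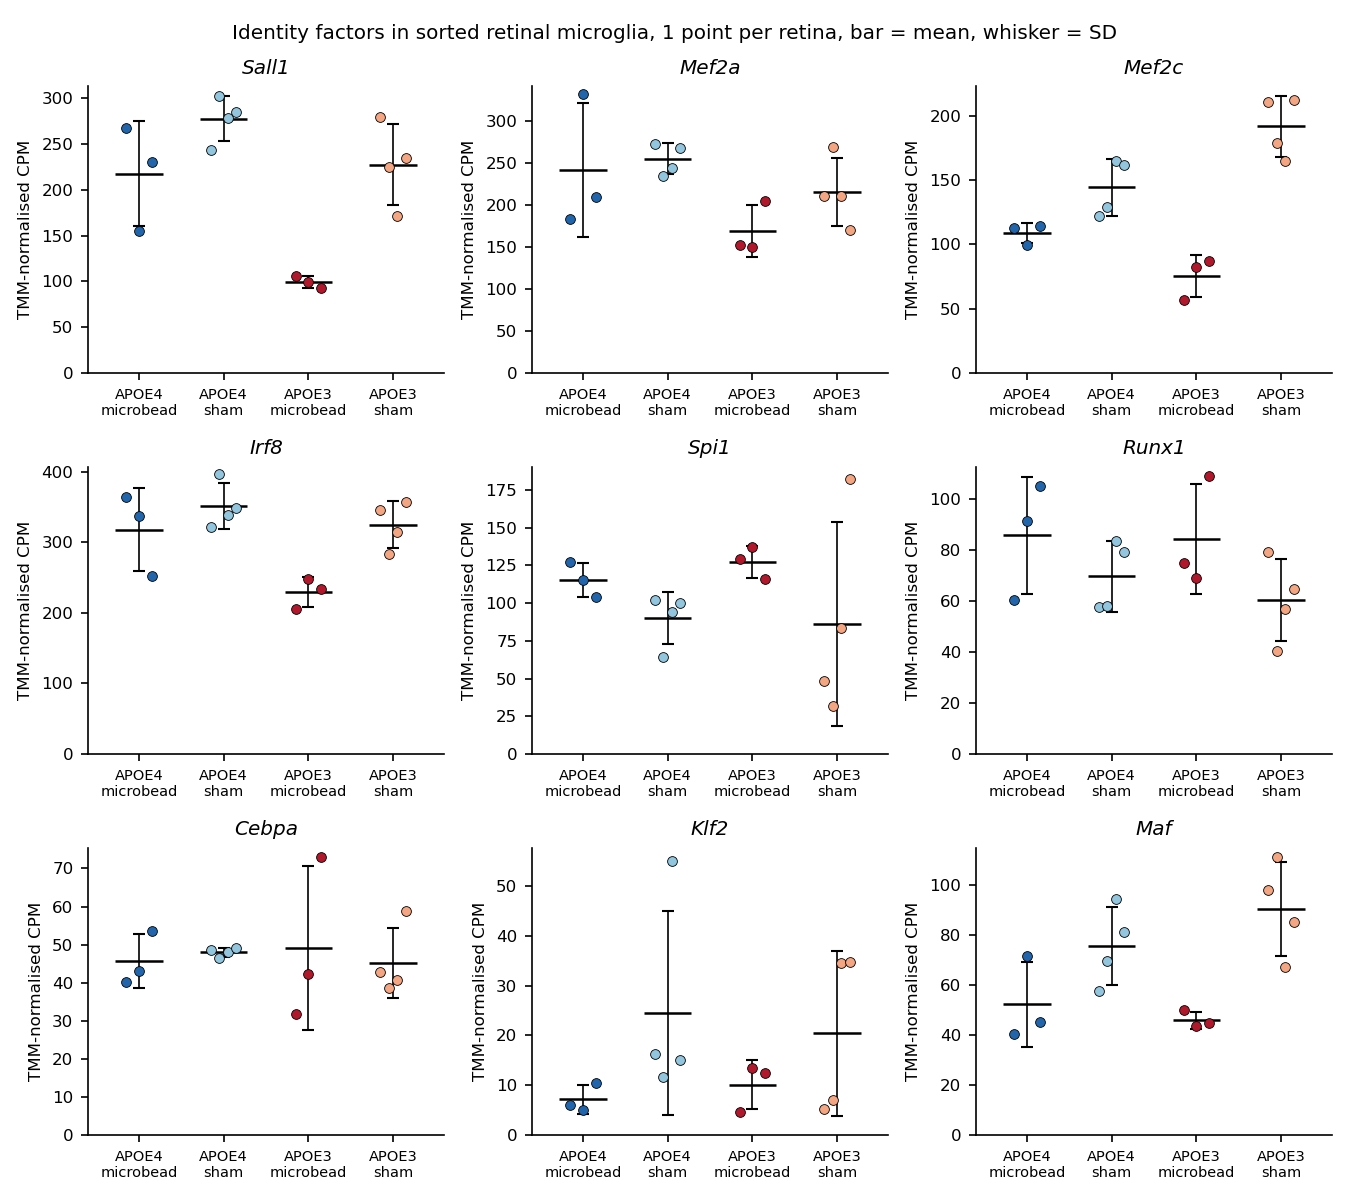
TMM-normalised CPM (y axis) of each factor in the 4 groups (x axis), 1 point per retina, with the group mean as a bar and 1 SD as a whisker. For Sall1 the 3 APOE3 microbead retinas lie between 92.7 and 106 CPM, below all other retinas, whereas Cebpa has group means between 45.3 and 49 CPM.

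Spi1 lies on the plus strand of chromosome 2 (91082390 to 91115756, ENSMUSG00000002111.8). It stood at 127, 115 and 104 CPM in APOE4 microbead, against 102, 64.6, 94.3 and 100 CPM in APOE4 sham. In APOE3 microbead it stood at 129, 137 and 116 CPM, against 48.1, 31.6, 83.3 and 182 CPM in APOE3 sham. Fitted differences were positive in both genotypes, unlike those of Sall1, Mef2c and Maf, and neither was called: 0.35 ± 0.41 in APOE4 (adjusted p = 0.955) and 0.53 ± 0.40 in APOE3 (adjusted p = 0.649). The APOE3 value turned on 1 library: without APOE3 sham 4, the retina at 182 CPM, it was 1.24 (adjusted p = 0.00816) and was called.

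Runx1, a Runt-domain factor of blood formation and early microglia, has a distal and a proximal start on the minus strand of chromosome 16 (92601466 to 92826149, ENSMUSG00000022952.17). Both windows are shown because the reads divide between these starts (distal chr16:92826025-92826324, proximal chr16:92697280-92697579, minus strand, RefSeq on GRCm38.p6). Capitals mark, in the distal window, 2 matches to the RUNX motif TGTGGT read on the other strand and, in the proximal window, 1 match to GAGGAA on the other strand.
Runx1 promoter, distal start: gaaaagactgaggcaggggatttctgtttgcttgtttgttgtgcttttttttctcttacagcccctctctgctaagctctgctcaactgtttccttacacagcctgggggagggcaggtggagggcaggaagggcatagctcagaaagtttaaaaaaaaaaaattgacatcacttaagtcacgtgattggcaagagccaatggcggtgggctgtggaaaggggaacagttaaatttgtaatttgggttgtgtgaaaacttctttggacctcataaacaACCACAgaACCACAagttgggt
Runx1 promoter, proximal start: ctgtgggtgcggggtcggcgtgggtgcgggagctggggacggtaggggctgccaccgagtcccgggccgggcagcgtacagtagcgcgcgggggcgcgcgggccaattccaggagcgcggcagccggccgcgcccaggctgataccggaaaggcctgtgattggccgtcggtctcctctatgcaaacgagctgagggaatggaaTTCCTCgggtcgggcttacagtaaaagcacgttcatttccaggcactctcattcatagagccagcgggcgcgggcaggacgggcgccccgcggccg

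Runx1 averaged 85.7 ± 23.1 CPM in APOE4 microbead and 69.6 ± 13.8 CPM in APOE4 sham, and 84.2 ± 21.5 CPM in APOE3 microbead and 60.3 ± 16.1 CPM in APOE3 sham (SD). Groups overlapped in both genotypes, and neither difference was called: 0.31 ± 0.27 in APOE4 (adjusted p = 0.924) and 0.47 ± 0.27 in APOE3 (adjusted p = 0.455). The sign in APOE4 turned in alternatives that take transcript length into account.

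Cebpa, a basic leucine zipper factor of the myeloid lineage (plus strand of chromosome 7, 35119293 to 35121928, ENSMUSG00000034957.10), had the most even group means. It averaged 45.7 ± 7.02 CPM in APOE4 microbead and 48 ± 1.15 CPM in APOE4 sham, and 49 ± 21.5 CPM in APOE3 microbead and 45.3 ± 9.21 CPM in APOE3 sham (SD). The log2 fold change was -0.07 ± 0.29 in APOE4 (adjusted p = 0.996) and 0.10 ± 0.28 in APOE3 (adjusted p = 0.943), and the SE leaves room for a moderate change in either direction.

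Klf2 (plus strand of chromosome 8, 72319033 to 72321656, ENSMUSG00000055148.7) had 2 to 31 estimated reads per library. It stood at 6.04, 4.99 and 10.4 CPM in APOE4 microbead, against 16.2, 11.6, 55.1 and 15.1 CPM in APOE4 sham. In APOE3 microbead it stood at 4.53, 13.4 and 12.5 CPM, against 5.15, 7.03, 34.6 and 34.8 CPM in APOE3 sham. The APOE4 groups did not overlap and the APOE3 groups did, and nothing is read from the separation in APOE4, since within APOE4 only sham libraries reached the filter's cutoff. The log2 fold change was -1.75 ± 0.71 in APOE4 (adjusted p = 0.619) and -0.94 ± 0.66 in APOE3 (adjusted p = 0.589), and neither was called. Without any 1 library the APOE4 value ranged from -2.12 to -0.98.

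Klf2 can be induced rapidly, and 16 genes of the immediate-early and dissociation response varied widely between libraries. Their sum was 744, 851 and 2573 CPM in APOE4 microbead, against 1332, 729, 3299 and 1302 CPM in APOE4 sham. In APOE3 microbead it was 362, 2610 and 2717 CPM, against 416, 1156, 5132 and 5732 CPM in APOE3 sham. The 3 libraries with the highest sums, APOE4 sham 3 and APOE3 sham 3 and 4, were also the 3 with the highest Klf2. The part of this response in the Klf2 values was not tested.

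Summed monocyte markers were highest in APOE3 microbead, the group in which Sall1, Mef2c and Maf were called lower than in sham. Over 14 markers the sum was 42.2, 223 and 88.2 CPM in APOE4 microbead, against 51.6 to 64.2 CPM in APOE4 sham. In APOE3 microbead it was 1584, 821 and 285 CPM, against 51.5 to 77.3 CPM in APOE3 sham. The excess was carried mainly by Fn1, encoding fibronectin, with means of 631 CPM in APOE3 microbead and 22.1 CPM in APOE3 sham. Ly6c2, whose protein the sort excluded, had 4 reads over the APOE3 microbead libraries and 6 over APOE3 sham. All 14 markers had a read in APOE3 microbead, whereas Hp was at 0 in APOE4 microbead, Ifitm6 and Lyz1 in APOE4 sham and Lyz1 in APOE3 sham.

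Sall1 stood at 92.7 CPM in the APOE3 microbead retina with the lowest monocyte marker sum, 285 CPM, and at 106 CPM in the one with the highest, 1584 CPM. The part of monocytes in the results was not tested. Without the APOE3 microbead retinas 1 and 2, which leaves 1 retina in that group assumed to vary like the others, the APOE3 values were -1.30 for Sall1 (adjusted p = 0.0774), -1.14 for Mef2c (adjusted p = 0.118) and -1.02 for Maf (adjusted p = 0.427). In that fit 0 factors were called, and 37 genes in all. Mef2c, in contrast to Sall1, was lowest in the retina with the highest marker sum, at 56.6 CPM. Over 8 border macrophage markers the sum was 19 to 103 CPM in APOE4 microbead and 26.4 to 67.9 CPM in APOE4 sham, and 82 to 171 CPM in APOE3 microbead and 58 to 97.2 CPM in APOE3 sham, each of the 8 having a read in every group. B cell markers, of which Ighm held most reads, summed to 175 to 253 CPM in APOE4 microbead and 257 to 343 CPM in APOE4 sham, and to 111 to 147 CPM in APOE3 microbead and 286 to 321 CPM in APOE3 sham. Cd79a, a defining B cell marker, was at 0 in both APOE4 groups. The part of border macrophages and B cells in the results was not tested.

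**Figure D3:**
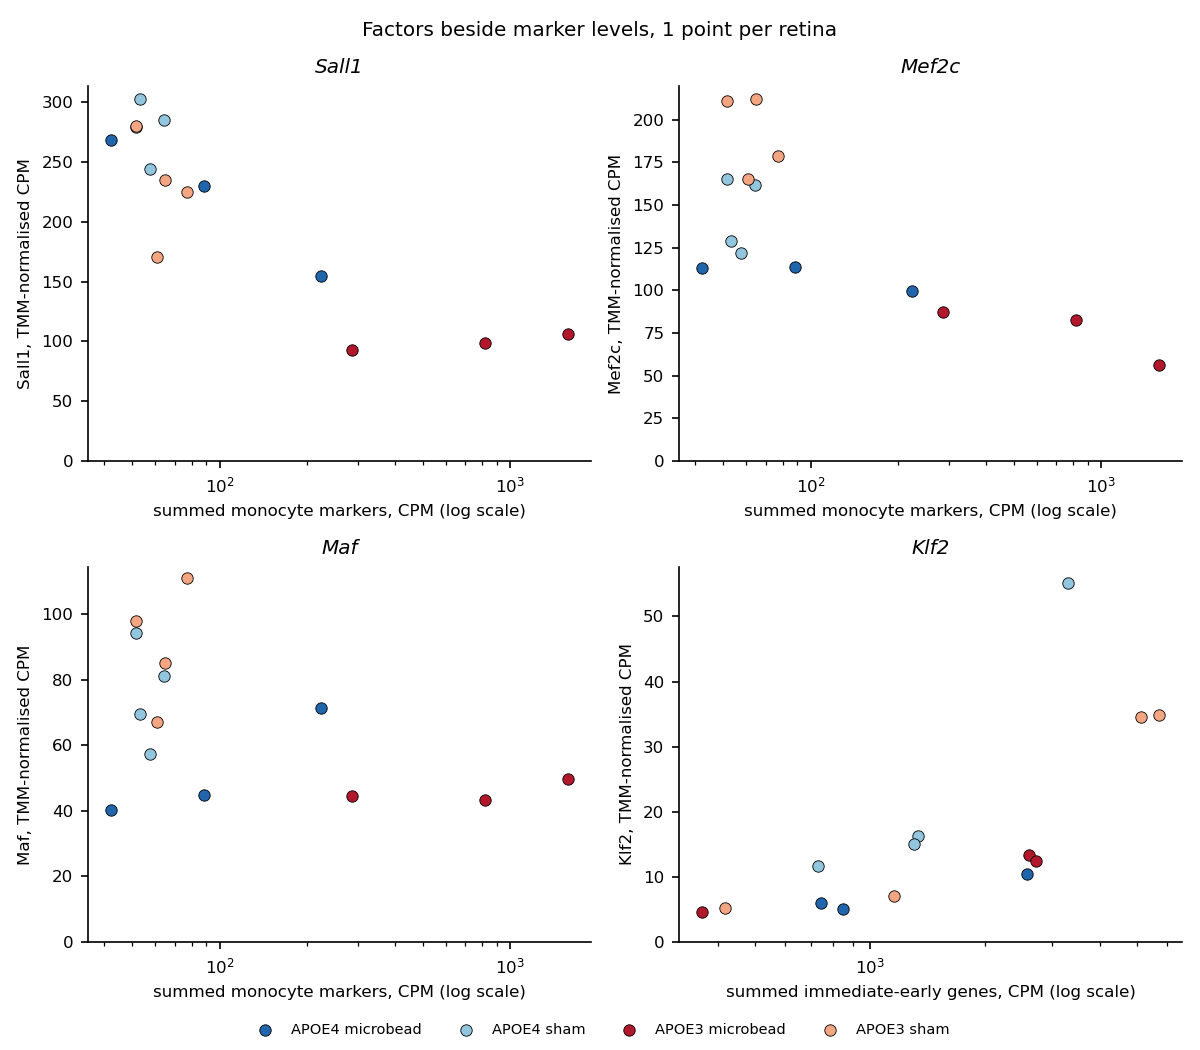
CPM of Sall1, Mef2c and Maf (y axes) against summed monocyte markers, and of Klf2 against summed immediate-early genes (x axes, CPM on log scales), 1 point per retina coloured by group. Sall1 is near 100 CPM in all 3 APOE3 microbead retinas, whose monocyte sums run from 285 to 1584 CPM.

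Levels can be ranked between genes on the deposited TPM, which is scaled by length. Over the 14 retinas Irf8 was the most abundant factor at 39.8 ± 17 TPM (SD), followed by Spi1 at 31.6 ± 21.8 TPM, Mef2a at 27.3 ± 8.46 TPM and Mef2c at 20 ± 12 TPM. Sall1 averaged 12.8 ± 6.31 TPM, in the middle of the set. The lower ranks were Runx1 at 8.59 ± 3.6 TPM, Cebpa at 7.64 ± 3.11 TPM, Maf at 6.94 ± 3.5 TPM and Klf2 at 4.69 ± 5.06 TPM. Several neighbours could not be separated: Spi1 exceeded Mef2a, and Cebpa exceeded Maf, in 7 of 14 retinas. Runx1 exceeded Cebpa in 9 of 14 and Mef2a exceeded Mef2c in 10 of 14. The clearest steps were Mef2c above Sall1 and Maf above Klf2, each in 12 of 14. TPM of a gene sums all its transcripts, so the order is not one of coding transcripts alone. Transcripts annotated as not coding or with a retained intron held 55% of Mef2a reads over all libraries. Spi1 includes transcripts of 402 to 613 bases beside Spi1-201 at 2034 bases, and a read on a short transcript adds more TPM.

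Sall1 ranked 5 in APOE4 microbead, APOE4 sham and APOE3 sham and 7 in APOE3 microbead, below Runx1 and Cebpa. There Sall1 averaged 5.92 ± 2.92 TPM, Runx1 8.07 ± 2.94 TPM and Cebpa 7.96 ± 4.27 TPM. Irf8 ranked first in the other 3 groups, and Spi1 ranked first in APOE3 microbead, at 35.2 ± 21.4 TPM beside 32.1 ± 21.5 TPM for Irf8. In APOE3 sham Mef2c ranked 3 and Mef2a 4, and Maf ranked 6, above Runx1 at 7 and Cebpa at 8. These ranks describe the groups and were not tested.

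**Figure D4:**
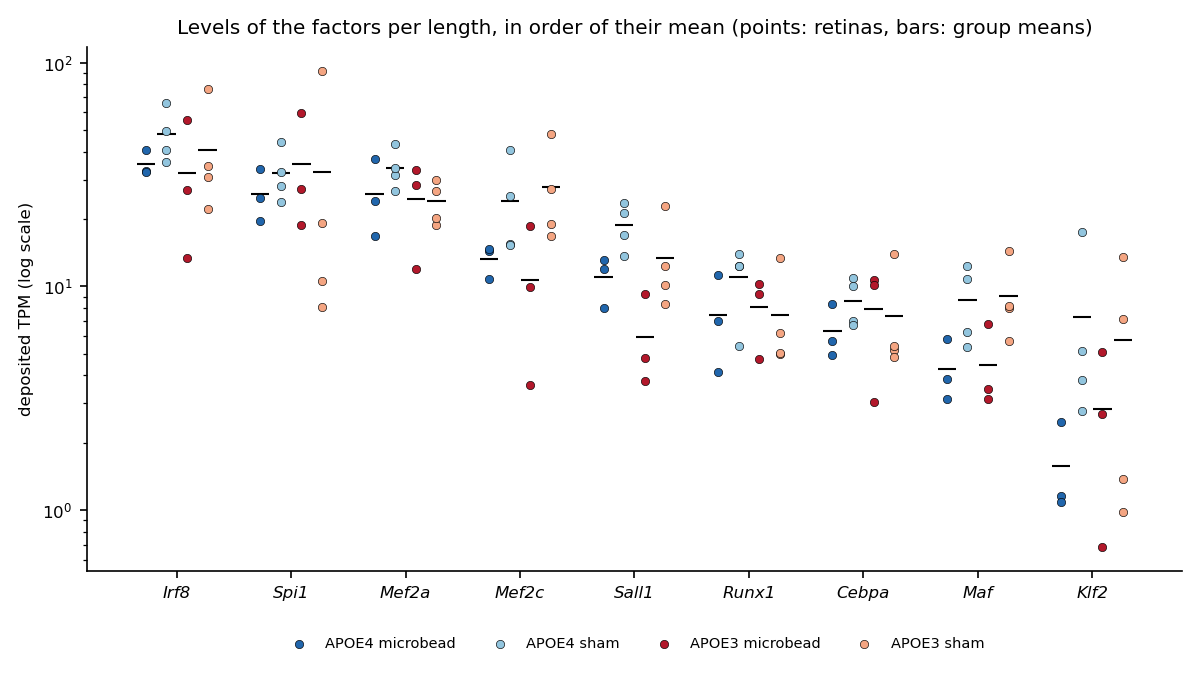
Deposited TPM (y axis, log scale) of the 9 factors (x axis, in order of their mean over 14 retinas), with 1 point per retina and a bar for each group mean. Irf8 and Spi1 lead at means of 39.8 and 31.6 TPM, and Sall1 in APOE3 microbead drops to a mean of 5.92 TPM.

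Transcripts of a gene are divided by Salmon's model, and these shares are given as a description. For Runx1 the distal start took 42.5% ± 11.9 of the reads in APOE4 microbead and 55.3% ± 10.9 in APOE4 sham, and 39.3% ± 2.97 in APOE3 microbead and 52.1% ± 12.7 in APOE3 sham (SD over retinas). Means were thus lower after microbeads in both genotypes, but ranges overlapped (29% to 51.2% against 40.8% to 65.6% in APOE4, 36.3% to 42.2% against 41.5% to 70.4% in APOE3), and a library held only 23 to 62 Runx1 reads. Transcripts annotated as not coding or with a retained intron held 35.2% of Runx1 reads over all libraries. Among coding transcripts alone the distal share was 40.8% ± 17.4 in APOE4 microbead and 52% ± 17.3 in APOE4 sham. It was 36.9% ± 3.77 in APOE3 microbead and 52.7% ± 14.4 in APOE3 sham, and ranges again overlapped in both genotypes. For Mef2a 55% of 1824 reads over all libraries went to transcripts annotated as not coding or with a retained intron, with 35% to 68.5% in single retinas. The Mef2a counts tested above therefore include reads that do not come from coding transcripts.

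For Mef2c the third start region, with the starts beyond it, took 1.52% to 39.4% of the reads in APOE4 microbead and 6.91% to 31.4% in APOE4 sham, and 24.8% to 75.3% in APOE3 microbead and 0.98% to 22.7% in APOE3 sham. APOE3 microbead was the group with the largest shares and the fewest Mef2c reads (148 over 3 retinas, against 483 over 4 in APOE3 sham), and the estimates ran to 0 for single transcripts. Irf8 and Spi1 were simpler: Irf8-201 held 81.7% and Spi1-201 81.4% of their gene's reads over all libraries.

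**Figure D5:**
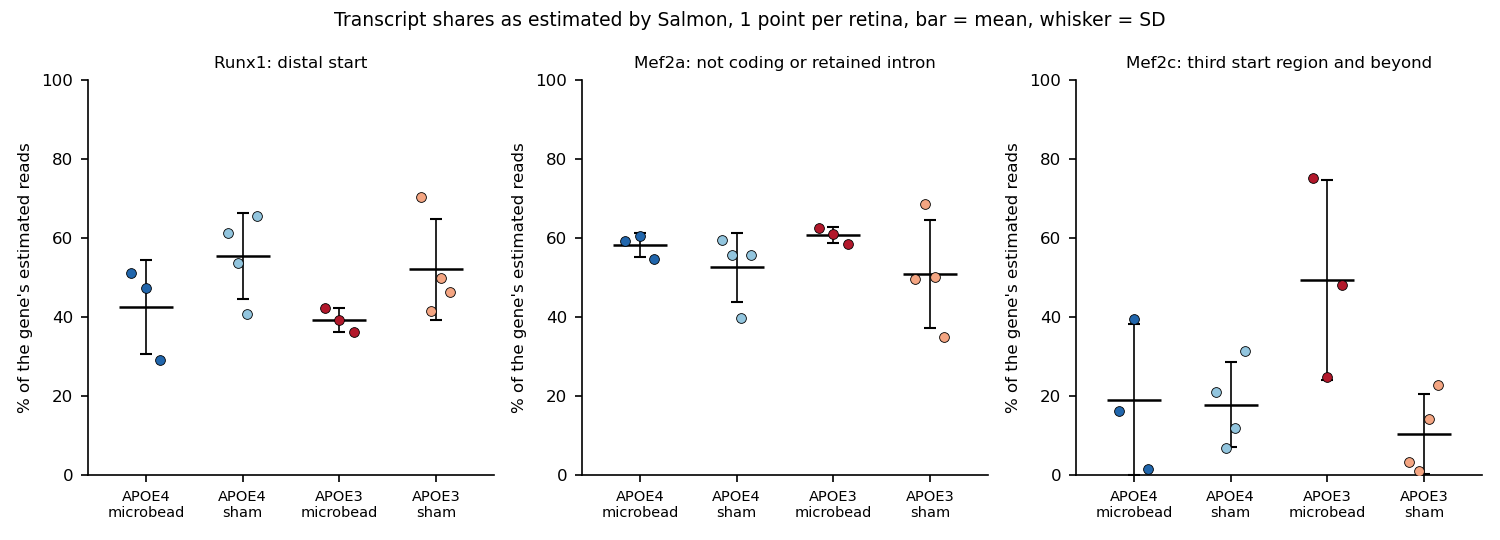
Share of a gene's estimated reads (y axis, %) for the distal start of Runx1, the non-coding or intron-retaining transcripts of Mef2a and the third start region of Mef2c with the starts beyond it in the 4 groups (x axis), 1 point per retina, with the mean as a bar and 1 SD as a whisker, drawn no lower than 0. The Mef2c share is 24.8% to 75.3% in APOE3 microbead and at most 22.7% in APOE3 sham.

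Of 32 family members of the factors 19 were tested, and 1 of them, Irf7, an amplifier of type I interferon signalling, was called in a comparison. It was called higher in both genotypes, where 0.197% of all genes were called in APOE4 and 3.54% were called higher in APOE3. Irf7 averaged 107 ± 67.9 CPM in APOE4 microbead and 21.4 ± 7.28 CPM in APOE4 sham (log2 fold change 2.33 ± 0.44, adjusted p = 0.0359). It averaged 61.1 ± 20.7 CPM in APOE3 microbead and 8.87 ± 7.29 CPM in APOE3 sham (2.63 ± 0.50, adjusted p = 0.00297). Irf7 rose in both genotypes, although its APOE4 call was lost when any 1 of 6 libraries was left out (adjusted p 0.0655 to 0.229): APOE4 microbead 2 and 3, APOE4 sham 2, 3 and 4, and APOE3 sham 2. Klf13, a Krüppel-like factor, just missed the threshold in APOE3 (0.85 ± 0.26, adjusted p = 0.0506). Its fitted change in APOE4 was similar in size (0.90 ± 0.26, adjusted p = 0.226). The list's median was -0.03 in APOE4 and -0.07 in APOE3.

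Among 16 partners and co-regulators, 12 tested, Hdac5 was the 1 gene called, lower in APOE3, where 1.62% of all genes were called lower. It encodes a class IIa histone deacetylase that binds MEF2 proteins and represses their targets. Hdac5 averaged 51.4 ± 2.49 CPM in APOE4 microbead and 74.5 ± 21.6 CPM in APOE4 sham (-0.54 ± 0.29, adjusted p = 0.827). It averaged 36.7 ± 16.6 CPM in APOE3 microbead and 77.6 ± 15.9 CPM in APOE3 sham (-1.01 ± 0.30, adjusted p = 0.042). The APOE3 call was lost when APOE4 microbead 2, APOE3 microbead 1 or 3, or APOE3 sham 1 or 2 was left out (adjusted p 0.0535 to 0.185).

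Of 32 other transcription factors of microglia and macrophages 26 were tested. In APOE4 none was called (0.197% of all genes were), and none had an unadjusted p under 0.05 (6.50% of all genes had). In APOE3 1 was higher and 2 were lower, where 3.54% of all genes were called higher and 1.62% lower. The higher one was Bhlhe40, a basic helix-loop-helix repressor, which passed the filter on low counts through the 3 APOE3 microbead libraries alone, so its call is no support for a change. It averaged 33.3 ± 6.27 CPM in APOE3 microbead and 2.06 ± 2.44 CPM in APOE3 sham (3.71 ± 0.81, adjusted p = 0.00428). In APOE4 it averaged 3.32 ± 5.76 CPM in microbead and 5.72 ± 1.49 CPM in sham, and the interaction was -4.39 ± 1.27 (adjusted p = 0.212). Etv5, an ETS factor, fell in APOE3 (-1.60 ± 0.31, adjusted p = 0.00141), and so did Lyl1, a basic helix-loop-helix factor of blood cells (-0.96 ± 0.25, adjusted p = 0.02). The Lyl1 call was lost without APOE3 microbead 1 or 2 (adjusted p 0.0626 to 0.123). Of 8 upstream signals, 6 tested, none was called in any comparison. The nearest were the TGF-beta receptor gene Tgfbr1 (-0.68 ± 0.21, adjusted p = 0.0507) and Csf1r (-0.68 ± 0.21, adjusted p = 0.0623), the receptor on which microglia depend for survival, both in APOE3.

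Genes linked to the 9 factors behaved differently by list. All 20 listed myeloid targets of PU.1 and IRF8 were tested. Over all genes 0.197% were called in APOE4, and in APOE3 3.54% were called higher and 1.62% lower. In APOE4 Itgam, encoding CD11b, rose (1.01 ± 0.22, adjusted p = 0.0466). In APOE3 Itgam (0.74 ± 0.22, adjusted p = 0.0442) and Cybb, encoding the catalytic subunit of the phagocyte NADPH oxidase (2.15 ± 0.47, adjusted p = 0.0124), rose, and Cx3cr1, the fractalkine receptor, fell (-1.06 ± 0.20, adjusted p = 0.00109). CD11b protein was itself used in the sort. Itgam lost its call when any 1 of 9 libraries was left out in APOE4 (adjusted p 0.0648 to 0.282) and any 1 of 12 in APOE3 (0.0556 to 0.159). Cybb lost it without APOE3 microbead 2 or APOE3 sham 4 (0.0506 to 0.0727). The list's median was 0.19 in APOE4 and 0.13 in APOE3.

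Of 10 genes known as KLF2 targets or linked to SALL1 and MEF2C, 6 were tested, and P2ry12, Tmem119, Siglech, Olfml3 and Gpr34 among them are also microglial markers. In APOE4 0 were called for microbead against sham (0.197% of all genes were), and 0 had an unadjusted p under 0.05 (6.50% of all genes had). In APOE3 5 were lower and 0 higher, where 1.62% of all genes were called lower and 3.54% higher. P2ry12, a purinergic receptor, averaged 570 ± 17.7 CPM in APOE4 microbead and 765 ± 67.8 CPM in APOE4 sham (-0.42 ± 0.21, adjusted p = 0.775). It averaged 254 ± 114 CPM in APOE3 microbead and 898 ± 121 CPM in APOE3 sham (-1.82 ± 0.22, adjusted p = 6.03e-06). Gpr34 (-2.04 ± 0.27), the fructose transporter gene Slc2a5 (-1.72 ± 0.27) and Siglech (-1.18 ± 0.19) fell likewise in APOE3, with an adjusted p of at most 0.000271. Tmem119 fell less (adjusted p = 0.0291) and lost its call without any 1 of APOE3 microbead 1 or 2 and APOE3 sham 1, 2 or 4 (0.0559 to 0.179). The list's median was -0.21 in APOE4 and -1.45 in APOE3. Without APOE3 microbead 1 and 2, 2 of the 5 were still called in APOE3, Gpr34 (-1.59, adjusted p = 0.00378) and P2ry12 (-1.23, adjusted p = 0.0114), and none of the calls described for the other lists in APOE3 was.

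Within microbead retinas 3 of these 6 genes were called higher in APOE4 than in APOE3, as Sall1 was, against 0.224% of all genes. They were Siglech (1.17 ± 0.20, adjusted p = 0.00414), P2ry12 (1.16 ± 0.23, adjusted p = 0.0101) and Gpr34 (1.25 ± 0.28, adjusted p = 0.0287). Gpr34 was also called in the interaction (1.80 ± 0.36, adjusted p = 0.0367), where 0.0920% of all genes were called. Of these 4 calls that of Siglech held without each single library, and none held without both APOE3 microbead 1 and 2. Without any 1 of 4 libraries P2ry12 was not called (adjusted p 0.0573 to 0.0857), namely APOE4 microbead 1 and 3 and APOE3 microbead 1 and 2. Gpr34 was not called within microbead without any 1 of 6 libraries (0.0506 to 0.142) or in the interaction without any 1 of 10 (0.0557 to 0.134).

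Genes whose level followed each factor were ranked by Pearson's r of log2 CPM over the 14 retinas, among 1820 genes outside the lists with a mean of at least 50 CPM. These coefficients describe libraries that share depth and group differences. Sall1 was followed most closely by Csmd3 (r = 0.92) and Smap2 (0.91), Mef2c by Edem1 (0.93) and Ivns1abp (0.92), and Irf8 by Rgs10 (0.92) and Mfap3 (0.90). Maf was nearest to Arap3 (0.85) and Mdm4 (0.84), and Mef2a to Eng (0.78) and Ccdc93 (0.76). The genes nearest to Spi1 were Lamp1 (0.89), a lysosomal membrane protein, and C1qc (0.88), a complement subunit, both with higher means in microbead than in sham retinas of either genotype. Runx1 was nearest to Nfkbia (0.76) and C1qa (0.75), Cebpa to Ubl3 (0.88) and Slc11a1 (0.76), and Klf2 to Rgs2 (0.87) and Tuba1a (0.86). Among the factors themselves the closest pairs were Sall1 with Irf8 (r = 0.80), Mef2c with Maf (0.78) and Sall1 with Mef2c (0.74), and Spi1 ran opposite to Maf (-0.59).

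Promoter windows from RefSeq were used for 7 of the 9 factors, 13 windows in all, reaching from 250 bases before to 50 after each start. Motifs were searched as exact letters on both strands, and no 2 matches overlapped. GAGGAA (ETS core as bound by PU.1) occurred in 28.3% of 32851 promoters, TGTGGT (RUNX) in 16.8%, TGCTGA (part of the MAF motif) in 19.5%, CTAAAAATA (MEF2) in 0.517%, the IRF motif (GAAA, any 2 bases, GAAA) in 3.44%, CCACACCC (KLF) in 3.56% and TTGCGCAA (CEBP) in 0.183%. GAGGAA was found in the windows of Mef2a, of the first and second Mef2c starts and of the proximal Runx1 start. TGCTGA was found at the third Mef2c start and the second Irf8 start, and TGTGGT at the distal Runx1 start. CTAAAAATA was found in Mef2a, beginning 2 bases before its start and running across it. The windows of Sall1, Cebpa, Klf2 and the first Irf8 start held none of these letters. A match describes the letters of a window and does not show binding.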

How the data were processed

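RNA of sorted retinal microglia was measured in 14 libraries. Per the submitters' processing notes the authors used Salmon 1.4.0, mm10, R 4.0.3 and DESeq2 1.30.1. The deposited files of each library give expected counts (estimated reads) and TPM per transcript with lengths and effective lengths, and a deposited series table gives TPM per gene. Per the file headers of that table, libraries were made with SMART-Seq2. The transcript lengths and effective lengths, other columns as deposited by the authors, entered 1 alternative.

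The estimated counts were summed per gene with GENCODE M21 (115945 of 116945 transcripts, 35449 genes) and rounded to whole numbers. TPM recomputed per library was within 1% of its own column of the series table for at least 99.2% of genes, and of another column for at most 1.35%. edgeR 4.0.16 (R 4.3.3) kept 7605 genes (minimum count 10, minimum total 15) and fitted 4 group means over all 14 libraries with TMM scaling and robust quasi-likelihood. P-values were two-sided and Benjamini-Hochberg adjusted over all genes, and the SE comes from the F statistic. The test was also run on simulated counts with the same spread for every gene and the same satellite share in every library. That run does not show how the test performs on these libraries, whose satellite share varied.

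The 28 alternatives comprised DESeq2 1.42.0, limma 3.58.1 (voom, and log2 of TPM plus 1 or 0.1), other scalings and filters, fewer libraries and a replicate block. The factors, gene lists, rule for named genes and alternatives were chosen with earlier results of these data known. Named are the 9 factors, up to 4 genes per list and comparison with the smallest unadjusted p, and the 2 nearest genes per factor by correlation. Tmem119 falls outside the rule and was named after its values were seen, because it completes a count of 5. Precision is limited by depth: Klf2 had 2 to 31 reads per library.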

Additional observations from a re-analysis of the deposited data

Results flagged for a closer look

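Klf2 in APOE4 sham 3 stood at 55.1 CPM, against 16.2, 11.6 and 15.1 CPM in the other 3 APOE4 sham retinas. Its distance from the nearest of them was large for the range of a group of 4. The same retina had the highest sum of immediate-early and dissociation genes in its group, 3299 CPM against 729 to 1332 CPM, and the part of that response in the Klf2 value was not tested. Without this retina the log2 fold change of Klf2 for microbead against sham in APOE4 was -0.98. The check was made for each of the 9 factors in both sham groups, 18 groups in all, and chance marks about 1 in 20.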

How the results depend on the processing

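Under 28 alternatives the APOE3 calls of Sall1 and Mef2c were kept in 25 each. Both were lost with limma on log2(TPM + 1) (adjusted p 0.583 and 0.441), on log2(TPM + 0.1) (0.545 and 0.446) and without both APOE3 microbead 1 and 2. In those 3 settings 0 factors were called lower in APOE3. With any 1 library left out 2 to 3 were lower and 0 to 1 higher (Spi1). The Sall1 call for APOE4 against APOE3 within microbead gave a count of 1, which was 0 with library totals, with transcript length offsets, with both TPM settings, with only the libraries compared and without both APOE3 microbead 1 and 2, and 0 to 1 with any 1 library left out. TPM of a library is scaled on all its reads, satellite reads included. Scaling by library totals shifted the median of all genes to -0.232 for microbead against sham in APOE4, and limma on log2(TPM + 1) to -0.288. On the deposited TPM the 4 group means kept their order for Sall1, Mef2c, Irf8 and Klf2, and not for the other 5 factors. The causes of the lost calls were not tested.

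Directions that turned were those of small, uncalled differences. For microbead against sham in APOE4, Runx1 was -0.21 with length offsets, -0.53 on log2(TPM + 1) and -0.59 on log2(TPM + 0.1), and Spi1 was -0.29 and -0.30 on the same TPM scales. The interaction of Mef2a was -0.36 on each. For APOE4 against APOE3 within microbead, Runx1 was -0.13 and -0.15 on those scales and -0.32 without both APOE3 microbead 1 and 2, and Maf was -0.026 on each. With single libraries left out, Cebpa ranged from -0.20 to 0.017 for microbead against sham in APOE4, from -0.28 to 0.30 in APOE3, from -0.37 to 0.21 in the interaction, from -0.31 to 0.28 for APOE4 against APOE3 within microbead and from -0.015 to 0.23 within sham. Mef2a ranged from -0.37 to 0.092 in APOE4 and from -0.020 to 0.44 in the interaction, Runx1 from -0.33 to 0.074 in the interaction and from -0.14 to 0.27 within microbead, Maf from -0.092 to 0.35 within microbead, Klf2 from -0.54 to 0.68 within sham, and Spi1 from -0.89 to 0.10 in the interaction and from -0.25 to 0.74 within sham.

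No pairing by replicate number was seen: none of 6 same-numbered pairs within a genotype correlated above 0.1 (-0.144 to 0.099). Of 18 differently numbered pairs within a genotype 1 did. With so few pairs, these values cannot exclude that some retinas shared a mouse. With the replicate block 2 factors were called lower in APOE3, Sall1 (-1.17, adjusted p = 0.00547) and Mef2c (-1.29, adjusted p = 0.00275), Maf not (-0.98, adjusted p = 0.0593), and 293 genes in all against 392.

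Over all genes, calls ranged with single libraries left out from 2 to 17 (15 as reported) in APOE4, from 225 to 478 (392) in APOE3, from 0 to 30 (7) in the interaction and from 11 to 121 (44) within microbead. With other settings they ranged from 2 to 53, 12 to 464, 0 to 46 and 1 to 111.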
